A study of Daphnia magna with 48 samples.

Results

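The results below describe the response of young Daphnia magna, a freshwater water flea, to 2,3,4-trichloroaniline. Arrays were chosen by their sample titles: 3 from exposed animals (TCA_EC10) and 3 from the control animals of the same experiment (TCA_CONT), 6 of 48 arrays in all. Per the labels, neonates were kept for 96 h at the EC10, the concentration that immobilises 10% of animals, or without the chemical, and the medium was renewed every 48 h. Each replicate was whole-body RNA of 30 pooled animals at day 4, so a change in RNA per cell and a change in the amount of a tissue cannot be told apart. Each array set a sample against a universal reference mixed from exposed and control RNA. The sample was in Cy5 for exposed replicates 1 and 2 and control replicate 2, and in Cy3 for exposed replicate 3 and control replicates 1 and 3. The other 42 arrays come from the same design with isobutanol, 3-chloropropanol, aniline, 4-chloroaniline, 3,5-dichloroaniline, 3,4-dichlorophenol and cadmium, each with its own 3 exposed and 3 control arrays.

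Narcosis is the toxicity shared by many organic chemicals that dissolve in membranes and reversibly depress activity. Non-polar narcotics such as simple alcohols act at this baseline, while polar narcotics such as anilines and phenols, which can form hydrogen bonds, are somewhat more toxic than their hydrophobicity predicts. 2,3,4-Trichloroaniline is aniline with 3 chlorine atoms on the ring, which makes it more hydrophobic than aniline itself. Immobilisation is the usual acute endpoint in Daphnia, and an EC10 sets the chemicals at the same effect and not at the same concentration. No table used here pairs the probes with genes, so probes are given by their identifiers and no gene roles are stated.

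All 6006 Daphnia probes carried a value on all 6 arrays. The values are log2 ratios, with the log base inferred from the values and the direction likely sample over reference. The basis for the direction is that 510 probes with an SD of 0.6 or more over all arrays had a median log2 mean ratio of -0.001 as deposited and 0.47 with the sign turned. For the 5496 less variable probes the median absolute log2 mean ratio was 0.0829 as deposited and 0.0773 turned, which does not favour this reading. Read the other way round, each rise would be a fall and the counts by direction would swap, with no change in any total. A ratio table carries no brightness, so no depth can be given, and precision is limited by how many arrays there are. At the median probe the change had a 95% confidence interval of ± 0.28.

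Exposed arrays were alike across probes, at r = 0.82 between replicates 1 and 2, both in Cy5, 0.56 between replicates 1 and 3 and 0.62 between replicates 2 and 3. Control arrays were less alike, at 0.42 between replicates 1 and 3, both in Cy3, 0.24 between replicates 1 and 2 and 0.02 between replicates 2 and 3. Between exposed and control arrays r lay between -0.18 and 0.39. The median SD over replicates was close in both groups, at 0.112 in exposed and 0.115 in control animals. These correlations are over probes on arrays that share the reference and, in part, the dye, and are given as a description.

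Exposed and control animals differed on 234 probes, or 3.90% of those tested, of which 138 were higher (2.30%) and 96 lower (1.60%) in exposed animals. The test was limma with 1 mean per group and the dye as a covariate over all 48 arrays, and a probe is called at a Benjamini-Hochberg adjusted p under 0.05. Every adjusted p below is from limma. Rises were the more numerous and falls the deeper. The median change was 0.79 over the called rises and -1.11 over the called falls, against -0.004 over all probes. At least 2-fold changes were reached by 54 rises and 54 falls, and at least 4-fold changes by 5 rises and 13 falls. The smallest called change was 0.25 in size, and 1064 probes had an unadjusted p under 0.05. Of the 234, 222 had exposed and control values that did not overlap, against 24.5% of all probes, a comparison that the selection itself favours.

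Which probes were called depended on the fit. With the 6 arrays of this experiment alone 245 probes were called, of which 122 were among the 234. Arrays scaled to equal spread gave 133 calls, 127 of them among the 234, and array weights gave 905, which held all 234.

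The count of falls moved more than the count of rises when single arrays were left out. Leaving out control replicate 1 gave 70 higher and 15 lower probes, leaving out control replicate 2 gave 75 and 22, and leaving out exposed replicate 2 gave 57 and 18. Leaving out exposed replicate 1 gave 101 and 28, and exposed replicate 3 gave 81 and 61. Without control replicate 3 the balance turned, with 91 probes higher and 138 lower. Of the 234 probes, 55 stayed called in all 6 of these fits, 101 in at least 3 and 24 in none.

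The largest rise was that of probe DM10770P3. It stood at 1.44, 1.81 and 1.89 on the exposed arrays, against -0.84, -1.0 and -0.75 on the control arrays, a rise of 2.56 ± 0.28 (SE; adjusted p = 6.78e-07). The groups were more than 2 log2 units apart and each was tight. Probe DM08108P3 stood at 1.10, 1.16 and 1.35 in exposed and at -0.93, -1.01 and -0.94 in control animals, a rise of 2.20 ± 0.35 (adjusted p = 0.000153). Probe DM08571P2 stood at 1.36, 1.40 and 1.56 in exposed and at -0.18, -0.52 and -0.45 in control animals, a rise of 1.82 ± 0.21 (adjusted p = 1.21e-06). In these 3 probes all replicates of a group lay within 0.5 of each other.

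Other large rises were more uneven across arrays. Probe DM06660P2 read 0.73, 1.00 and 2.34 in exposed and -0.82, -0.87 and -0.51 in control animals, with exposed replicate 3 far above its partners. Its rise of 2.09 ± 0.36 (adjusted p = 0.000386) was 1.54 without that array (adjusted p = 0.0178). Probe DM01276P2 read 0.87, 0.36 and 1.03 in exposed and -2.04, -0.88 and -0.90 in control animals, where control replicate 1 was the low one. Its rise of 2.01 ± 0.48 (adjusted p = 0.013) was no longer called without control replicate 1 or exposed replicate 3. Probe DM11939P1 read 1.41, 1.83 and 1.92 in exposed and 0.39, 0.26 and -0.74 in control animals, and its rise of 1.65 ± 0.43 (adjusted p = 0.0229) was lost without control replicate 2 or 3 or exposed replicate 2 or 3. The other 6 of the 12 largest rises, DM08380P2, DM06832P1, DM09841P3, DM07140P3, DM07195P1 and DM08745P1, lay between 1.63 and 2.18 and stayed called in each of the 6 fits without an array.

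**Figure D1:**
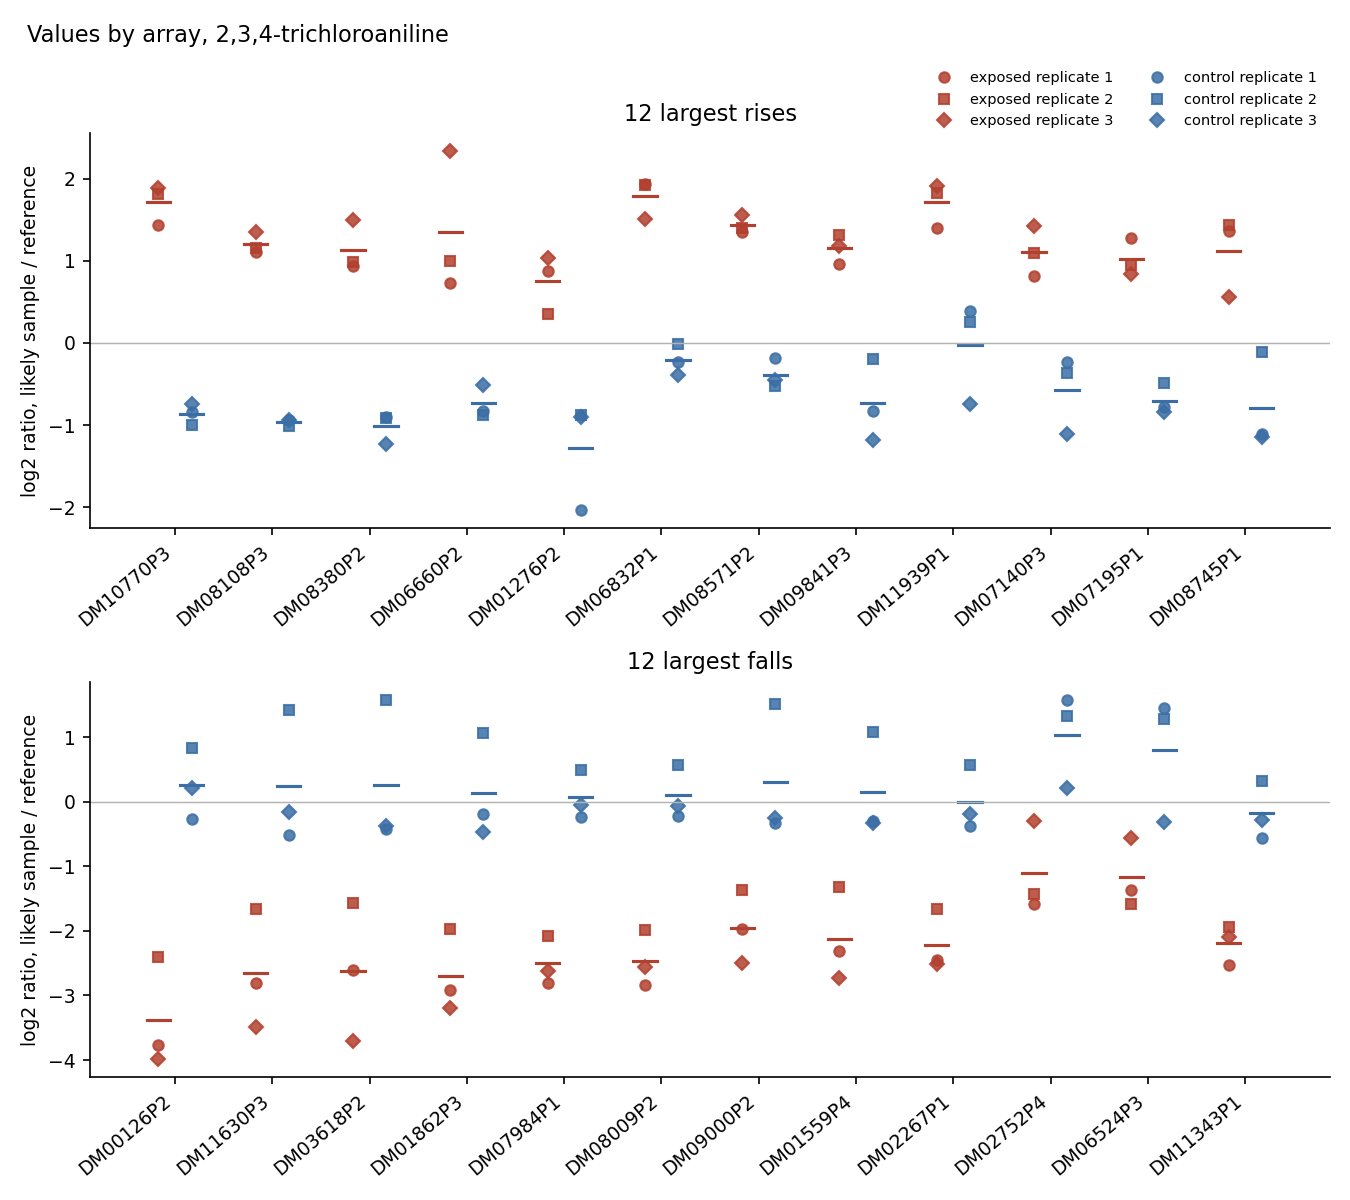
Log2 ratio (vertical axis, likely sample over reference) of the 12 largest rises (top) and the 12 largest falls (bottom) on each array, with exposed replicates in red left of control replicates in blue and horizontal bars at the group means. By the choice of these probes no exposed value overlaps a control value, and among the falls control replicate 2 stands above the other controls in 10 of 12 probes.

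The deepest fall was that of probe DM00126P2. It stood at -3.77, -2.41 and -3.99 on the exposed arrays, against -0.27, 0.83 and 0.21 on the control arrays, a fall of -3.66 ± 0.63 (SE; adjusted p = 0.000386). Its call stayed in each of the 6 fits without an array. Probe DM11630P3 stood at -2.81, -1.66 and -3.49 in exposed and at -0.51, 1.41 and -0.15 in control animals, with exposed replicate 2 and control replicate 2 the highest of their groups. Its change was -3.13 ± 0.75 (adjusted p = 0.0137), and the call was lost without control replicate 2 (adjusted p = 0.112) and without exposed replicate 1 or 3.

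Among the 12 largest falls, 10 were also called lower with at least 3 other chemicals, and these 10 shared this profile. They are DM00126P2, DM11630P3, DM03618P2, DM01862P3, DM07984P1, DM08009P2, DM09000P2, DM01559P4, DM02267P1 and DM11343P1. Over these 10 probes exposed values ranged from -3.77 to -1.97 on replicate 1, from -2.41 to -1.33 on replicate 2 and from -3.99 to -2.10 on replicate 3. Control values ranged from -0.56 to -0.20 on replicate 1, from 0.33 to 1.58 on replicate 2 and from -0.47 to 0.21 on replicate 3. Exposed replicate 2 was thus the least depressed and control replicate 2 the highest. DM07984P1 and DM08009P2 gave nearly the same reading throughout. Their mean difference was 0.027 (SD 0.107) over all 48 arrays and the largest was 0.556, so they are not independent observations. The 10 as a whole are not independent either. Over the 42 arrays of the other chemicals r between pairs of the 10 lay between 0.86 and 0.999. Over the 21 control arrays among these, with the dye effect removed, it lay between 0.22 and 0.99, with a median of 0.75.

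Of these 10 deep falls, 9 lost the call in at least 1 of the 6 fits without an array. DM03618P2, DM07984P1, DM08009P2 and DM09000P2 lost it in each of the 6, with adjusted p between 0.0511 and 0.225. In those fits the change lay between -3.51 and -2.58 for DM03618P2, -2.78 and -2.32 for DM07984P1, -2.79 and -2.29 for DM08009P2 and -2.70 and -2.10 for DM09000P2. Scaling to equal spread also ended these 4 calls (adjusted p 0.0841 to 0.138). Without the dye covariate DM03618P2 and DM09000P2 lost the call (adjusted p = 0.0742 and 0.12). With the replicate number as a block these 2 lost it as well (adjusted p = 0.0545 and 0.055). DM07984P1 and DM08009P2 kept the call in both settings. Quantile normalization lowered the adjusted p of all 4 probes, to between 8.57e-06 and 0.00127. The 6 arrays of this experiment alone lowered it to between 0.00431 and 0.0062. Of the 6 fits without an array, DM01862P3, DM01559P4 and DM02267P1 kept the call only in the one without control replicate 3. DM11343P1 lost it without control replicate 2 and without exposed replicate 1.

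The remaining 2 large falls had another profile. Probe DM02752P4 stood at -1.59, -1.42 and -0.31 on the exposed arrays, against 1.57, 1.33 and 0.21 on the control arrays (change -2.10 ± 0.53, adjusted p = 0.0192). Probe DM06524P3 stood at -1.37, -1.58 and -0.56 in exposed and at 1.46, 1.28 and -0.32 in control animals (change -2.10 ± 0.54, adjusted p = 0.0212). In both, the third exposed and the third control array lay nearest to the opposite group and the other arrays far apart. Both calls were lost without control replicate 1, control replicate 2, exposed replicate 1 or exposed replicate 2.

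Arrays with the sample in Cy5 and arrays with it in Cy3 rest on different animals, so each dye gives an estimate of the exposure effect from samples of its own. The Cy5 estimate comes from exposed replicates 1 and 2 against control replicate 2, and the Cy3 estimate from exposed replicate 3 against control replicates 1 and 3. The typical 95% interval of either estimate was ± 0.38. Each estimate has 1 array on one side, which is assumed to vary like the arrays of the other groups. The Cy5 arrays alone called 37 probes (0.616%), 22 of them higher, and the Cy3 arrays alone 17 (0.283%), 16 of them higher. All 37 Cy5 calls had the same sign in Cy3, where 35 had an unadjusted p under 0.05, against 669 of all 6006 probes. All 17 Cy3 calls had the same sign in Cy5, where 13 had an unadjusted p under 0.05, against 724 of all 6006 probes. Both estimates use the same residual spread of a probe, so a small spread favours a low p in both dyes. Each call of 1 dye thus kept its sign in the other. The median size of the Cy5 calls was 1.23, and their median Cy3 effect in the same direction was 0.85. The median size of the Cy3 calls was 1.54, and their median Cy5 effect was 1.51.

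Of all probes, 8 were called on each dye alone. They are the rises DM10770P3, DM08108P3, DM08571P2, DM08745P1, DM07251P2, DM07431P1 and DM06035P3 and the fall DM07423P3. The last of the rises and the fall lie outside the rule for named probes and were chosen after their values were seen. DM07423P3 stood at -1.33, -1.5 and -1.10 on the exposed arrays, against 0.35, 0.14 and 0.53 on the control arrays. Its effect was -1.56 in Cy5 and -1.54 in Cy3. DM10770P3 gave 2.63 in Cy5 and 2.68 in Cy3. DM08571P2 gave 1.90 in Cy5 and 1.88 in Cy3.

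Agreement in sign was higher among larger effects. Over all probes 69.6% had the same sign in both dyes. Binned by the Cy5 effect, the share was 61.9% of the 4091 probes under 0.25, 82.3% of the 1270 from 0.25 to 0.5, 92.2% of the 450 from 0.5 to 1, 95.9% of the 146 from 1 to 2 and 100% of the 49 at 2 or more. Binned by the Cy3 effect it ran from 62.5% of the 4025 smallest to 100% of the 20 largest. All 234 called probes had the same sign in both dyes, which their selection on the joint estimate favours. Over all probes the 2 estimates had r = 0.72 and rho = 0.58, across probes that are not independent.

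**Figure D2:**
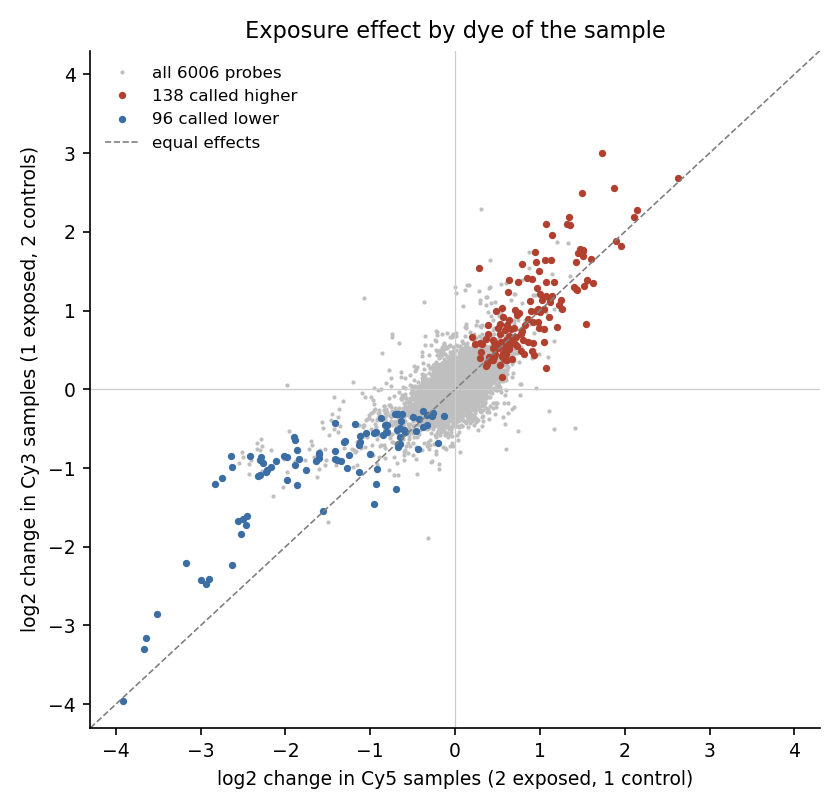
Log2 change, exposed minus control, estimated from Cy5 samples (horizontal axis, 2 exposed and 1 control array) and from Cy3 samples (vertical axis, 1 exposed and 2 control arrays) for all 6006 probes. Called rises (red) lie about the dashed line of equal effects, while 79 of the 96 called falls (blue) have the larger size in Cy5.

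The Cy5 effects were mostly the larger among the falls, and the Cy3 effects somewhat more often among the rises. The 96 called falls had a median of -1.33 in Cy5 and -0.83 in Cy3, and the Cy5 size was the larger in 79. The 138 called rises had medians of 0.79 in Cy5 and 0.83 in Cy3, and the Cy3 size was the larger in 77 and the Cy5 size in 61. The exposed array nearest to the controls was replicate 3, in Cy3, for 58 of the 96 falls, and the control array nearest to the exposed ones was replicate 3, also in Cy3, for 71 of 96. Control replicate 1, in Cy3 too, was the nearest for 13 of the 96, and control replicate 2, the only control in Cy5, for 12. These counts are from values with the dye effect left in. Exposed replicate 3 was the only exposed array in Cy3. Among the exposed arrays dye and replicate therefore cannot be told apart. Among the controls, replicates 1 and 3 shared the dye but not the count, at 13 and 71 of the 96 falls. The cause was not tested.

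The test of the dye difference itself called no probe (0.00%) in limma. Before adjustment 113 probes had p under 0.05, and after it the lowest value was 0.0867. The typical 95% interval of that difference was ± 0.54, so moderate differences between dyes were not detectable. The smallest adjusted p belonged to DM07604P2 and DM08887P1, named after their values were seen. DM07604P2 read 0.10, 0.28 and 1.49 on the exposed arrays, against -0.10, -0.10 and -0.01 on the control arrays. DM08887P1 read -0.13, 0.04 and 1.18 on the exposed arrays, against -0.22, -0.20 and -0.06 on the control arrays. In both, exposed replicate 3 stood alone.

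Many changes were also seen with other chemicals, very unevenly among them. Of the 234 called probes, 118 (50.4%) were called in the same direction with at least 1 other chemical, each tested against its own controls in the same fit. Of these, 54 were shared with 1 other chemical, 29 with 2, 11 with 3 and 24 with 4. Without 3-chloropropanol, whose replicates had a median SD of 0.191 in exposed and 0.161 in control animals, 115 were shared. The aniline controls had a higher median SD, at 0.204, and were kept. As background, 20.0% of all probes were called in either direction with at least 1 of the other 7 chemicals. The shared part moved both ways with the processing. It was 69 of 244 called probes under quantile normalization and 62 of 133 with arrays scaled to equal spread, against 66 of 85 without control replicate 1, 70 of 97 without control replicate 2, 58 of 75 without exposed replicate 2 and 75 of 142 without exposed replicate 3.

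Isobutanol, which called 12.6% of all probes, shared the most calls, 99 in the same direction against 4 in the opposite one. Of the 138 rises, 69 (50.0%) also rose with isobutanol, where 6.29% of all probes rose, and these were 18.3% of isobutanol's own rises. Of the 96 falls, 30 (31.2%) also fell with isobutanol, where 6.34% of all probes fell, and these were 7.87% of its falls. The shared part was thus larger among rises than among falls, a difference that was not tested. The median isobutanol effect was 0.63 over the 138 rises and -0.01 over the 96 falls. The labels give a 48 h renewal of the medium for the anilines and none for isobutanol.

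Cadmium, a toxic metal and no narcotic, called 2.95% of all probes and shared 50 calls in the same direction against 4 in the opposite one. Of the 138 rises 33 (23.9%) also rose with cadmium, where 1.78% of all probes rose, and of the 96 falls 17 (17.7%) also fell, where 1.17% of all probes fell. These were 30.8% of cadmium's rises and 24.3% of its falls. The phenol 3,4-dichlorophenol, a polar narcotic like the anilines, called 2.85% of all probes. It shared 24 rises (17.4%) against a background of 1.28% and 17 falls (17.7%) against 1.57%, with 1 opposite call. These were 31.2% of its rises and 18.1% of its falls. Both chemicals shared more of the rises and falls than their background. The median effect over the 138 rises was 0.29 with cadmium and 0.25 with 3,4-dichlorophenol. Over the 96 falls it was -0.17 with cadmium and 0.04 with 3,4-dichlorophenol, where 40 of the 96 had a negative effect.

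3-Chloropropanol, with 8.72% of all probes called, gave a split picture. It shared 28 rises (20.3%) against a background of 5.13% and 22 falls (22.9%) against 3.60%. In the opposite direction, 25 of the 96 falls were called higher with 3-chloropropanol and 2 of the 138 rises were called lower. Its median effect over the 96 falls was 0.20, above 0.

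The 3 anilines with fewer chlorine atoms shared 1 call in all. That call was the rise of DM07251P2, also called with 4-chloroaniline. Aniline and 3,5-dichloroaniline called no probe (0.00% each) and 4-chloroaniline called 2 (0.0333%), with 1 in each direction (0.0167%), the other being the fall of DM03126P4, which was not called with 2,3,4-trichloroaniline. At an unadjusted p under 0.05 limma gave 371 probes for aniline, 265 for 3,5-dichloroaniline and 603 for 4-chloroaniline. The median effects of the list stayed near 0 with all 3. Over the 138 rises the median effect was 0.09 with 4-chloroaniline, 0.02 with 3,5-dichloroaniline and -0.06 with aniline. Over the 96 falls it was 0.03, 0.01 and -0.01. The 12 largest rises stood apart from this flat picture with 4-chloroaniline, where all 12 effects lay above 0, between 0.08 and 1.30, with 0 called by limma at an adjusted p under 0.05 and 8 at an unadjusted p under 0.05. The same 12 lay between -0.55 and 1.06 with aniline and between -0.30 and 0.40 with 3,5-dichloroaniline. The residual SD of a chemical's own 6 arrays was 0.190 for 2,3,4-trichloroaniline, against 0.282 for 4-chloroaniline, 0.275 for aniline and 0.223 for 3,5-dichloroaniline.

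**Figure D3:**
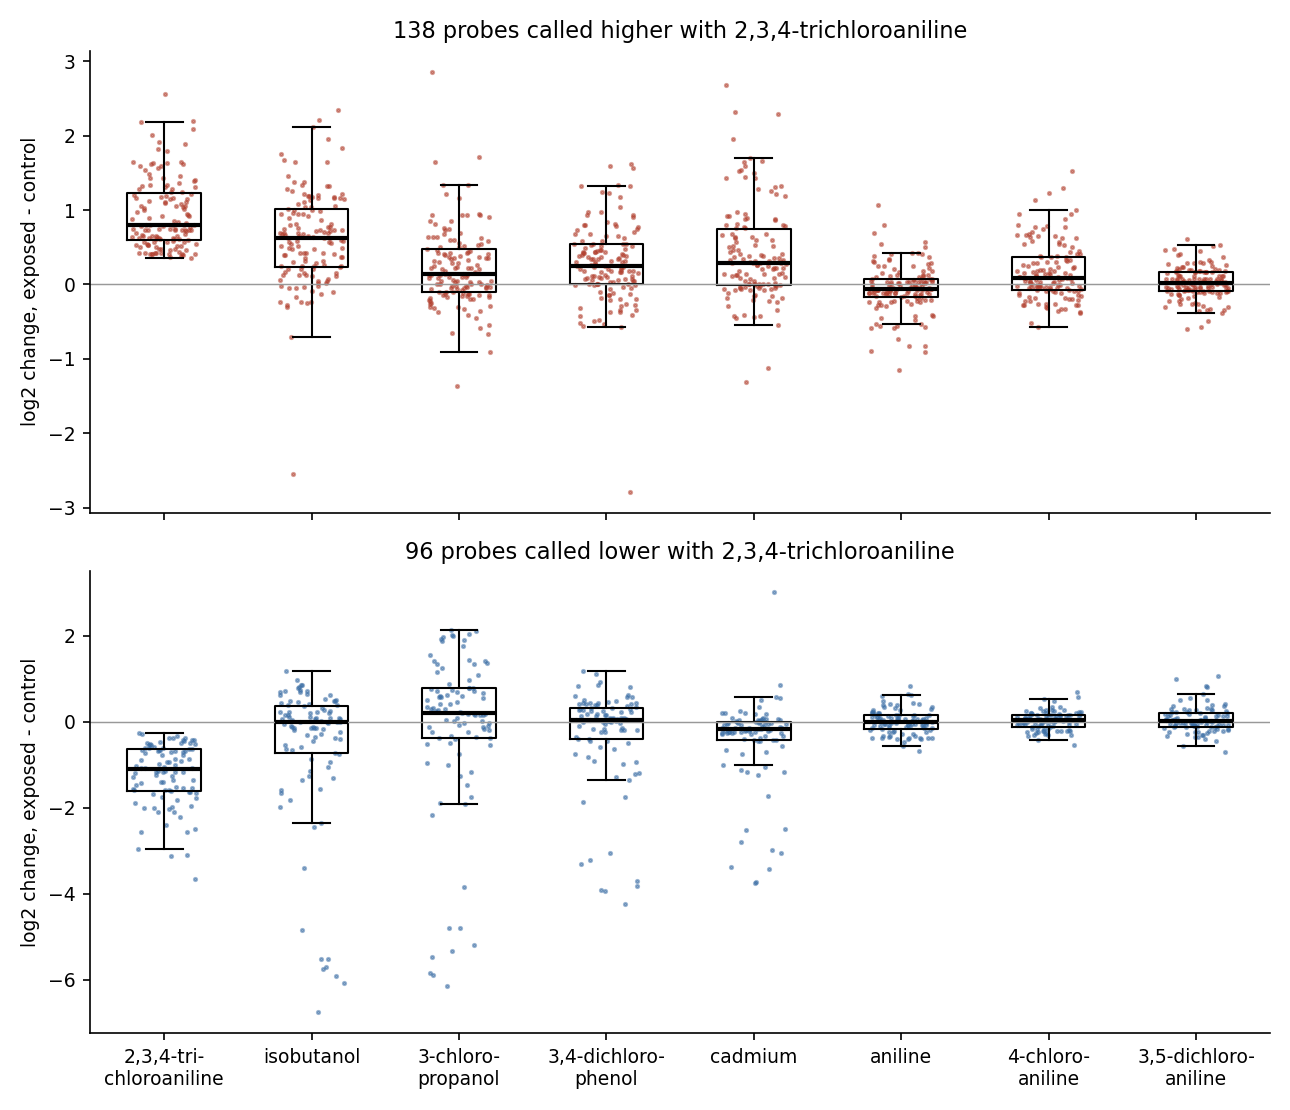
Log2 change, exposed minus control, of the 138 rises (top) and the 96 falls (bottom) of 2,3,4-trichloroaniline in its own experiment (left) and with each of the other 7 chemicals. Points are probes, boxes the quartiles with the median as a thick line, and whiskers end at the last probe within 1.5 box lengths. Over the rises the medians with isobutanol, cadmium and 3,4-dichlorophenol are 0.63, 0.29 and 0.25, and over the falls the points reach below -5 with isobutanol and 3-chloropropanol.

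The 24 probes shared with 4 other chemicals, 9 higher and 15 lower, were shared with the same 4, namely isobutanol, 3-chloropropanol, 3,4-dichlorophenol and cadmium. Of all probes, 0.699% were called in 1 direction with at least 4 of the other chemicals. Among the rises, DM08571P2 changed by 1.82 with 2,3,4-trichloroaniline, against 2.67 with cadmium, 1.25 with 3,4-dichlorophenol, 0.93 with 3-chloropropanol and 0.72 with isobutanol. Probe DM08429P1 read 1.19, 1.49 and 1.23 in exposed and -0.19, 0.36 and -0.36 in control animals (change 1.24 ± 0.26, adjusted p = 0.00411). DM07969P3 read 0.54, 0.71 and 0.86 in exposed and -0.33, -0.27 and 0.07 in control animals (change 0.92 ± 0.18, adjusted p = 0.00215). All 3 exposed values lay above all 3 controls in each. DM06706P2 read 0.54, 0.63 and 0.66 in exposed and -0.37, -0.16 and -0.24 in control animals (change 0.87 ± 0.18, adjusted p = 0.00267). For DM07969P3 and DM06706P2 none of the 7 differences from another chemical passed, which does not show equal effects.

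Among the shared falls, DM03174P1 stood at -1.92, -1.41 and -1.79 in exposed and at -0.20, 0.83 and -0.09 in control animals (change -1.99 ± 0.32, adjusted p = 0.000195). DM02286P2 stood at -1.28, -1.29 and -0.69 in exposed and at 0.46, -0.37 and 0.19 in control animals (change -1.0 ± 0.17, adjusted p = 0.000386). DM00264P2 stood at -1.24, -1.04 and -0.84 in exposed and at 0.05, 0.47 and -0.09 in control animals (change -1.18 ± 0.22, adjusted p = 0.000968). All 3 stayed called in each of the 6 fits without an array. DM02286P2 fell less than with isobutanol, by a difference of 1.35 ± 0.25 (adjusted p = 0.00252 over all probes and 7 pairs). DM03174P1 and DM00264P2 differed from aniline, 4-chloroaniline and 3,5-dichloroaniline and from none of the chemicals that shared the fall.

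The 10 deep falls described above were picked for a call in the same direction with at least 3 other chemicals. Their sharing is thus set by that choice. All 10 were called with isobutanol, 3-chloropropanol and cadmium. Their effects with 2,3,4-trichloroaniline lay between -3.66 and -2.03, against -6.76 to -1.82 with isobutanol, -6.15 to -2.16 with 3-chloropropanol, -4.24 to -1.75 with 3,4-dichlorophenol and -3.76 to -1.73 with cadmium. With 3,4-dichlorophenol 9 of the 10 were called, DM00126P2 being the exception. None was called with the other 3 anilines in limma, also at an unadjusted p under 0.05 (0 of 10 for each), and their effects lay between 0.19 and 0.82 for aniline, -0.22 and 0.58 for 4-chloroaniline and -0.71 and -0.24 for 3,5-dichloroaniline. The difference from a single aniline passed for DM00126P2 alone, at -4.08 ± 0.90 against aniline (adjusted p = 0.0118) and -4.25 ± 0.90 against 4-chloroaniline (adjusted p = 0.00894). For the other 9, no difference between 2,3,4-trichloroaniline and any single one of the 7 chemicals passed, which does not show that the effects were alike.

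In all, 34 of the 234 probes were called in the opposite direction with another chemical. As background, 20.0% of all probes were called in either direction with at least 1 of the other 7. The 6 opposite probes with the smallest adjusted p are described first. DM07431P1 stood at 1.26, 1.51 and 1.56 in exposed and at 0.62, -0.24 and -0.21 in control animals, a rise of 1.46 ± 0.23 (adjusted p = 0.000171). It also rose with isobutanol (1.37) and 3-chloropropanol (0.74) but fell with cadmium (-1.32), and the difference from cadmium was 2.78 ± 0.33 (adjusted p = 6.31e-06). DM02411P2 stood at 0.29, 0.43 and 0.49 in exposed and at -0.12, -0.03 and -0.29 in control animals, a rise of 0.57 ± 0.13 (adjusted p = 0.00991). It fell by 1.13 with cadmium, a difference of 1.70 ± 0.18 (adjusted p = 1.72e-06), and its rise was lost without exposed replicate 2 (adjusted p = 0.0546).

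DM07251P2 was the probe also called with 4-chloroaniline, and it was called with cadmium too. It stood at 0.68, 0.86 and 1.12 in exposed and at -0.72, -0.71 and -0.62 in control animals, a rise of 1.49 ± 0.20 (adjusted p = 1.11e-05), against 1.53 with 4-chloroaniline and 2.28 with cadmium. It fell with 3-chloropropanol (-0.67) and the difference of 2.15 ± 0.28 passed (adjusted p = 2.80e-05). Differences also passed against isobutanol, aniline, 3,5-dichloroaniline and 3,4-dichlorophenol. DM06447P2 stood at 0.52, 0.74 and 0.58 in exposed and at -0.10, -0.09 and -0.06 in control animals, a rise of 0.67 ± 0.13 (adjusted p = 0.00168) shared with isobutanol (1.01) and opposite to 3-chloropropanol (-0.58).

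The opposite falls were DM04230P1 and DM06196P2. DM04230P1 stood at -0.20, -0.25 and -0.22 in exposed and at 0.66, 0.45 and 0.30 in control animals, a change of -0.71 ± 0.16 (adjusted p = 0.0074), and it rose with 3-chloropropanol (0.72) and cadmium (0.86). Its call was lost without control replicate 1 (adjusted p = 0.0662). DM06196P2 stood at -0.54, -0.69 and -0.60 in exposed and at 0.30, 0.50 and -0.17 in control animals, a change of -0.92 ± 0.21 (adjusted p = 0.00989), and it rose with 3-chloropropanol (0.78). Its call was lost without control replicate 1 or 2 or exposed replicate 2. DM01276P2, among the largest rises, was called lower with isobutanol (-2.55) and 3,4-dichlorophenol (-2.78), and its differences from them passed, at 4.56 ± 0.69 (adjusted p = 0.00023) and 4.79 ± 0.68 (adjusted p = 0.000115). The other opposite calls with isobutanol were DM02277P3, DM07178P1 and DM12076P3, and the fourth with cadmium was DM11286P2, all of them falls with 2,3,4-trichloroaniline and named after their values were seen.

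Of the 234 probes, 116 had no call in the same direction elsewhere, 50 of them rises and 66 falls, and 85 had no call elsewhere in either direction. A missing call elsewhere is not a difference, so each effect was also set against that of each other chemical, with p adjusted over all probes and the 7 pairs, which share the 2,3,4-trichloroaniline arrays. Of the 85, 51 differed from at least 1 other chemical and 34 from none. No probe differed from all 7 (0.00%) in limma, against 49 with an unadjusted p under 0.05 in all 7 differences, and 4 differed from 6, of which DM10770P3 was called with cadmium. The difference of DM10770P3 from cadmium was 0.60 ± 0.40 (adjusted p = 0.503), while its differences from the other 6 lay between 1.76 and 3.07.

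The other 3 that differed from 6 chemicals, DM08355P3, DM06141P2 and DM04432P3, were chosen after their values were seen. DM08355P3 read 0.61, 0.98 and 0.44 in exposed and -0.07, 0.02 and -0.01 in control animals, a rise of 0.67 ± 0.09 (adjusted p = 1.11e-05), and its effect with the other 7 chemicals lay between -0.15 and 0.30, none called. DM06141P2 read 1.11, 1.5 and 0.97 in exposed and -0.01, 0.19 and 0.12 in control animals, a rise of 1.05 ± 0.17 (adjusted p = 0.000171), shared with isobutanol (0.82). DM04432P3 read 0.80, 0.96 and 0.47 in exposed and -0.10, -0.04 and -0.12 in control animals, a rise of 0.77 ± 0.13 (adjusted p = 0.000195), also shared with isobutanol (0.70). All 3 stayed called in each of the 6 fits without an array.

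The effect of 2,3,4-trichloroaniline differed from the mean effect of the other 7 chemicals on 143 probes (2.38%), 58 more positive and 85 more negative. Of these, 104 were among the 234, an overlap that is favoured because both comparisons contain the same 2,3,4-trichloroaniline effect. The count of 143 depended on the arrays. Leaving out control replicate 1 gave 10 probes and control replicate 2 gave 34. Leaving out exposed replicates 1, 2 and 3 in turn gave 60, 18 and 86, and taking 3-chloropropanol out of the mean gave 65. DM10770P3 exceeded the mean by 2.18 (adjusted p = 8.5e-05) and DM06660P2 by 1.90 (adjusted p = 0.0069).

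Aniline, 4-chloroaniline and 3,5-dichloroaniline differ from 2,3,4-trichloroaniline in having no or fewer chlorine atoms and share its 48 h renewal. Against the mean effect of these 3 anilines, 106 probes differed (1.76%), 71 more positive and 35 more negative. Of the 106, 94 were among the 234, an overlap favoured in the same way. The typical 95% interval of the difference from the 3 anilines was ± 0.33. DM10770P3 exceeded the mean of the 3 anilines by 2.24 (adjusted p = 0.000177) and DM08571P2 by 1.43 (adjusted p = 0.00134), while DM00126P2 lay below it by a difference of -3.76 (adjusted p = 0.00428). Of the other 9 deep falls DM11630P3 and DM11343P1 lay below it too, by differences of -3.22 (adjusted p = 0.0475) and -2.13 (adjusted p = 0.0376). Leaving out control replicate 1 gave 42 probes, control replicate 2 gave 35, and exposed replicates 1, 2 and 3 gave 63, 35 and 60. Leaving out replicate 3 of the 4-chloroaniline controls gave 222.

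Because every chemical had its own control group, the level of each probe could be set against the 7 other control groups. After removal of the dye effect, the exposed mean lay outside the range of those 7 means and the control mean inside it for 108 of the 138 rises (78.3%). The reverse, a control mean outside and an exposed mean inside, held for 6. Falls divided the other way: the exposed mean alone lay outside for 28 of 96 and the control mean alone for 49 (51.0%). Over all probes the shares were 17.9% for the exposed mean alone and 8.71% for the control mean alone. Called probes were selected for a gap between these means, which itself favours a mean outside the range.

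**Figure D4:**
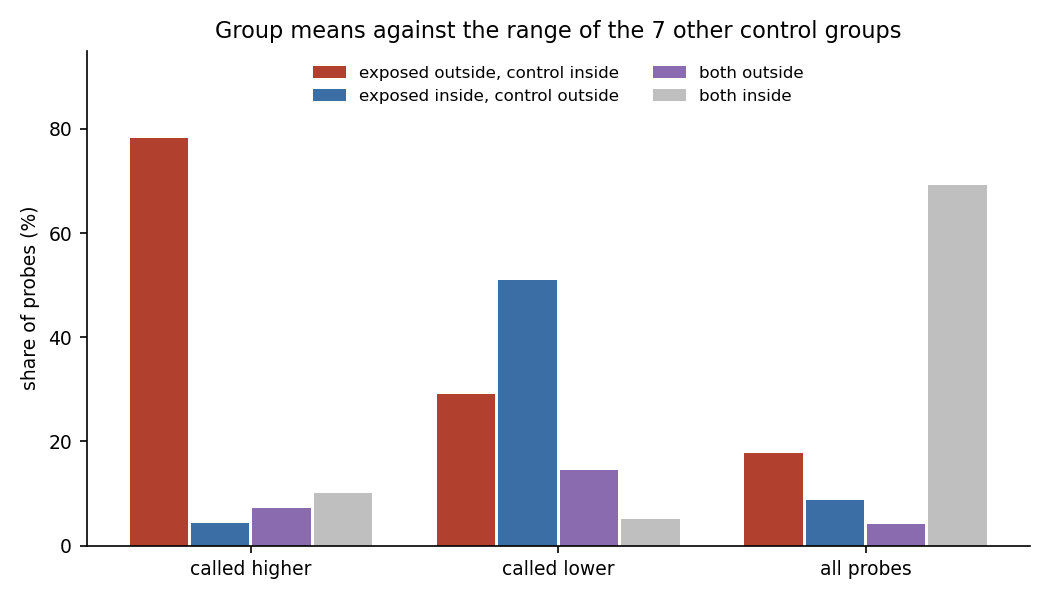
Share of probes (vertical axis, percent) by whether the exposed and the control group mean lie inside or outside the range of the 7 other control groups, for the 138 called rises, the 96 called falls and all 6006 probes. The exposed mean alone is outside for 78.3% of the rises, and the control mean alone for 51.0% of the falls. The selection of called probes by the gap between both means favours a mean outside.

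The division was not the same in falls with and without sharing, a difference that was not tested. Of the 30 falls shared with another chemical, the exposed mean lay below all 7 other control groups in 28 and the control mean above all 7 in 11, with both outside in 10. Of the 66 falls shared with none, the exposed mean lay below all 7 in 14 and the control mean above all 7 in 52. Both means lay outside in 4. Of the 66, 29 were called in the opposite direction with another chemical. Among all probes, 20.0% were called in either direction with at least 1 other chemical. On the arrays, the median of these 66 probes was -0.76, -0.65 and -0.35 in exposed replicates 1 to 3 and 0.74, 0.61 and -0.02 in control replicates 1 to 3. The medians of the 7 other control groups lay between -0.83 and 0.08. Control replicates 1 and 2 thus stood above the medians of all 7 other control groups, while control replicate 3 and the 3 exposed arrays lay within their range. Here single arrays are set against means of 3 arrays per group, which vary less. Of the 66, only DM07423P3 (-1.63) and DM04007P1 (-1.14) stayed called in all 6 fits without an array, against 8 of the 30 shared falls. Whether these 66 changes come from exposure or from the control animals was not tested.

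Among the rises the exposed mean was the one outside in most probes, shared or not, though less often without sharing, a difference that was not tested. The 88 shared rises had array medians of 0.71, 0.84 and 0.79 in exposed and -0.08, -0.13 and -0.17 in control animals, with the other control groups between -0.34 and 0.16. The 50 rises shared with none had 0.50, 0.60 and 0.59 in exposed and -0.13, -0.08 and -0.08 in control animals, with the other control groups between -0.09 and 0.29. In the 50, control replicate 1, a single array, and the median control level of -0.09 lay slightly below the lowest median of the other control groups. The exposed mean lay above all 7 other control groups in 81 of the 88 and in 37 of the 50, and the control mean below all 7 in 6 of the 88 and 8 of the 50. In all 6 fits without an array, 40 of the 88 and 5 of the 50 stayed called. Those 5 were DM06660P2, DM09789P1, DM10043P1, DM08355P3 and DM06042P3, which, like DM04007P1, were picked out from this count after their values were seen, DM06660P2 excepted. The median change was 0.89 over the 88 and 0.68 over the 50.

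**Figure D5:**
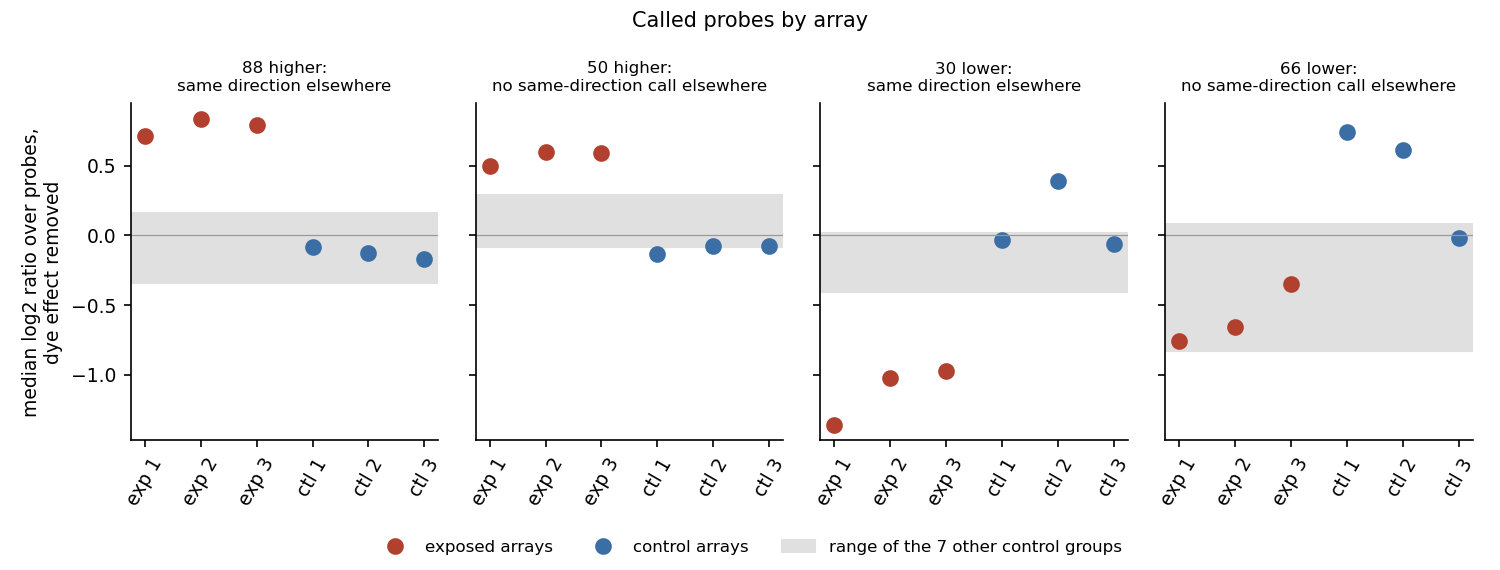
Median log2 ratio over probes (vertical axis, dye effect removed) on each exposed (red) and control (blue) array, for called rises and falls with and without a call in the same direction for another chemical. The grey band spans the medians of the 7 other control groups, taken from means of 3 arrays, which vary less than the single arrays shown. For the 66 falls without such a call the 3 exposed arrays and control replicate 3 lie in the band. Control replicates 1 and 2 lie above it.

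Single probes showed both patterns. DM02752P4 had a mean level of -1.09 in exposed and 1.02 in control animals, with the 7 other control groups between -2.08 and 0.25, and DM06524P3 had -1.23 and 0.87, with the others between -2.36 and 0.50. Both were called higher with 3-chloropropanol. DM10770P3 had 1.70 in exposed and -0.85 in control animals, with the others between -1.41 and 0.01, so that here the exposed level alone was outside. DM00126P2 had -3.40 and 0.27 with the others between -1.27 and 0.12, both outside.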

How the data were processed

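The deposited table holds log2 ratios of each sample against the universal reference, normalized by the authors. The base was inferred from the values. How background was corrected, how arrays were normalized and which probes were dropped is not given in the sources used, and the table may hold only some of the array's probes. The table was used as deposited: opposite-dye replicates had a median r of 0.44 over 32 pairs, and a spike-in row followed the dye on 48 of 48 arrays, so swapped arrays had been turned. limma 3.58.1 in R 4.3.3 fitted 16 group means and the dye (31 residual and 3.65 prior degrees of freedom), with two-sided moderated tests and Benjamini-Hochberg adjustment within each comparison. The dye difference used 32 means by group and dye (16 residual degrees of freedom). Named were the 12 largest called rises and falls whose groups did not overlap, up to 4 higher and 4 lower probes shared with most chemicals, and 6 opposite ones. Further parts of the rule, for probes that differ from all 7 chemicals or between dyes, gave none. The fit was run on simulated data with independent normal noise and the same SD for a probe on all arrays. Real probes co-vary and the spread differs between chemicals, features that this run does not cover. Replicates are labelled biological. Replicate numbers were not taken to pair an exposed with a control sample. Deviations of same-numbered arrays had r of -0.30, 0.03 and -0.17, against -0.17 to 0.29 for unlike numbers. With 3 arrays per group these values cannot show whether samples were paired. The comparisons and lists were chosen with earlier results of these data known. Figures used matplotlib 3.10.9.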

Additional observations from a re-analysis of the deposited data

Results flagged for a closer look

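For 6 probes called in opposite directions with 2,3,4-trichloroaniline and another chemical, the difference between the 2 effects was tested directly and passed. Against 3-chloropropanol the difference was 2.15 for DM07251P2, 1.26 for DM06447P2, -1.43 for DM04230P1 and -1.70 for DM06196P2, with limma's adjusted p of 2.80e-05, 0.000192, 0.000375 and 0.00181. Against cadmium it was 2.78 for DM07431P1, 1.70 for DM02411P2 and -1.57 for DM04230P1, with adjusted p of 6.31e-06, 1.72e-06 and 0.000111. Each of these 7 differences kept its sign and stayed past the threshold in the alternatives run for it, with the highest adjusted p 0.0211, for DM06196P2. The probes were selected because their calls were opposite, so the sizes describe them and are no independent evidence. Groups of 3 arrays were too small to be screened for outlying samples. None of the 27 control rows of the array was called for 2,3,4-trichloroaniline in limma, also at an unadjusted p under 0.05 (0 of 27). Their changes lay between -0.47 and -0.04, all below 0, with an SE between 0.09 and 0.67. At the larger SE changes of this size could not be called, so these rows are a weak check.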

How the results depend on the processing

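The 36 named probes kept their direction in each alternative run, and 385 of 468 recomputed effects kept the call. Scaling the arrays to equal spread gave 133 called probes, 83 that differed from the mean of the other 7 chemicals, 70 that differed from the mean of the 3 anilines and 62 shared ones. Quantile normalization gave 164 against the 3 anilines, 2 that differed from all 7 chemicals and 69 shared. Array weights gave 905 called (507 higher and 398 lower), 2 dye differences, 518 against the mean of 7, 721 against the 3 anilines, 6 that differed from all 7 and 543 shared. The 4 anilines' own arrays gave 57 against the 3 anilines, and the more variable part of the probes gave 1 that differed from all 7. Leaving out 3-chloropropanol, chosen after seeing the data, gave 65 against the mean of the rest. With the replicate number as a block, 206 probes were called (142 higher and 64 lower), 78 differed from the mean of 7 and 1 differed from all 7. Whether the numbers pair the samples could not be shown. The cause of these shifts was not tested. Leaving out 1 array at a time, the called count ran from 75 to 285, the dye differences from 0 to 2, the count against the mean of 7 from 10 to 205, against the 3 anilines from 35 to 222, those that differed from all 7 from 0 to 3 and the shared ones from 58 to 150. There were 2 dye differences without aniline control replicate 1, 2 without aniline control replicate 3 and 1 without exposed replicate 1, while 3 probes differed from all 7 without control replicate 3 and 1 without 3,4-dichlorophenol control replicate 1. Without exposed replicate 3 or control replicate 2 the dye difference could not be estimated, and the comparison with the mean of 7 has no version on fewer arrays. No brightness is given, so probes near background cannot be told from bright ones.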
